A study of Mus musculus with 7 samples.

Results

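Genes of transforming growth factor beta (TGF-β) signalling were followed in microglia, the resident macrophages of the brain, that had been sorted from inside and from outside a neuronal graft. The 10 genes were taken by name, with earlier results of these data known. Among them were the ligand Tgfb1, its latency partner Nrros and the receptors Tgfbr1 and Tgfbr2. The others were the signal transducers Smad2, Smad3 and Smad4 and the inhibitors Smad7, Ski and Skil. These genes are 10 of the 55341 gene names of the deposited count table, and all 10 passed the filter on low counts, which kept 15257 genes.

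Bulk RNA sequencing was available for 7 libraries, 3 from inside WT grafts and 4 from pieces of host cortex close to the graft. All hosts carried the label 5xFAD, on C57BL/6, at an age of 14 weeks and 4 weeks after embryonic WT neuronal cells had been injected. The 5xFAD transgenes encode mutant human APP and PS1 under the neuron-specific Thy1 promoter and lead to amyloid deposition, and both groups carried them. The comparison is therefore one of location within transgenic hosts, and microglia of hosts without the transgenes or without a graft were not analysed here. The cells were sorted as CD11b+CD45low. The labels do not say whether the libraries came from separate mice, so the p-values measure only the spread between these libraries.

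TGF-β1 is released bound to its own propeptide in a latent form, and in microglia the latent complex is held at the cell surface by the protein that Nrros encodes. Once freed, the ligand brings TGFBR2 and TGFBR1 together, TGFBR1 phosphorylates SMAD2 and SMAD3, and these enter the nucleus with SMAD4 and bind short DNA elements. SMAD7, SKI and SKIL (SnoN) dampen the pathway, and in the adult brain continued TGF-β signalling is needed for microglia to keep the gene programme that sets them apart from other macrophages.

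The DNA just upstream of the ligand, its latency partner and both receptors is printed here because these 4 genes open the pathway and because SMAD3 and SMAD4 can act on such DNA. Each line holds the 250 bases before the RefSeq transcription start on GRCm38.p6, 5′ to 3′ on the strand of the gene, with each match to the 4-letter Smad-binding element (GTCT or AGAC, both strands) in capitals. The windows are chr7:25686752-25687001 on the plus strand for Tgfb1, chr16:32165595-32165844 on the minus strand for Nrros, chr4:47352972-47353221 on the plus strand for Tgfbr1 and chr9:116175364-116175613 on the minus strand for Tgfbr2.
Tgfb1: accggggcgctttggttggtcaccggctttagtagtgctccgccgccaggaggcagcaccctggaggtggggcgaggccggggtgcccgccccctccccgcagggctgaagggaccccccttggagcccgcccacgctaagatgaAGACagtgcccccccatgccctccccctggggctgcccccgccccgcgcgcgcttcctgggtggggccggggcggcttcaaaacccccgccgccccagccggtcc
Nrros: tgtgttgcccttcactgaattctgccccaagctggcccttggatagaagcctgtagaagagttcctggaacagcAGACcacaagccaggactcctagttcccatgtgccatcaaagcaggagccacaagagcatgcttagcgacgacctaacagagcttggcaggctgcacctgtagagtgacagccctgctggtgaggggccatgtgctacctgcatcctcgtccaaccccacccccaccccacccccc
Tgfbr1: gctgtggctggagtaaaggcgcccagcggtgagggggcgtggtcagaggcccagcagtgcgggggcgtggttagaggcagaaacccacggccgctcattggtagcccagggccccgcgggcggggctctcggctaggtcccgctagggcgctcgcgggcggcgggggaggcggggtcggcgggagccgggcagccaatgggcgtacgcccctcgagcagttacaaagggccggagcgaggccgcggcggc
Tgfbr2: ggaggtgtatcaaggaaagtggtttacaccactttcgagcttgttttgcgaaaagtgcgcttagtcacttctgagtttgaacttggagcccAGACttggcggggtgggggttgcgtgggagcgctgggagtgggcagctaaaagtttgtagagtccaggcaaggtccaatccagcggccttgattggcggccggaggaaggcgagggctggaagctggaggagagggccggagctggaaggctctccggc

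Tgfb1, Nrros and Tgfbr2 each held 1 match to the element, and Tgfbr1 held 0. So short an element is common: 82.9% of 32851 windows of this length contained at least 1, with a median of 2. The longer CAGA box (CAGAC or GTCTG), which contains the element, occurred once in the Nrros window and once in the Tgfbr2 window, against 42.2% of all windows. The core of the site of PU.1, the main myeloid transcription factor (GAGGAAGT or ACTTCCTC), was found in 0 of the 6 windows examined, which also included Smad3 and Ski, and in 2.44% of all windows. The 4 printed windows held from 3 CpG in Nrros and 12 in Tgfbr2 to 21 in Tgfb1 and 29 in Tgfbr1, and those of Smad3 and Ski held 22 and 53, against a median of 6 over all windows. A match to such letters is a description and not a site of binding.

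By the GENCODE M21 annotation that the counting used, the exons of the 10 genes shared no bases with those of another gene. The gene of the ligand, Tgfb1 (ENSMUSG00000002603.15), lies at chr7:25687002-25705077 on the plus strand, and Nrros (ENSMUSG00000052384.14) at chr16:32142785-32165594 on the minus strand. The receptor genes are Tgfbr1 (ENSMUSG00000007613.15) at chr4:47353222-47414931 on the plus strand and Tgfbr2 (ENSMUSG00000032440.13) at chr9:116084293-116175360 on the minus strand. Smad3 (ENSMUSG00000032402.12) at chr9:63646767-63757994 and Ski (ENSMUSG00000029050.15) at chr4:155154075-155222592 are both on the minus strand, and Skil (ENSMUSG00000027660.16) is at chr3:31095058-31122577 on the plus strand. Reads were counted over the exons of each gene, UTRs included, and summed over 3712 bases for Smad4, 4177 bases for Nrros and up to 9694 bases for Skil.

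Transcripts for every step of the pathway were present in every library. None of the 10 genes was at a low count: the smallest count in any library was 1139, for Smad2, and the largest was 40758, for Tgfbr1. Between genes, levels were compared as RPKM, that is CPM (counts in a library of standard size) divided by the exon length in kilobases. Outside the graft the order of mean RPKM ran from the receptors at the top to the receptor-activated Smads at the bottom. Tgfbr1 led with 217 ± 15.1 RPKM (SD, n = 4), and all of its libraries were above those of Tgfbr2, at 98.2 ± 9.08 RPKM. Tgfbr2, Nrros (88.2 ± 8.85 RPKM) and Ski (86.9 ± 5.87 RPKM) followed each other with overlapping libraries. Tgfb1, at 48.0 ± 2.05 RPKM, lay below all of these and above Smad4, at 27.2 ± 1.45 RPKM, in each case without overlap. Skil (19.0 ± 1.80 RPKM), Smad7 (16.3 ± 1.22 RPKM) and Smad3 (15.8 ± 3.17 RPKM) overlapped from each to the next, and Smad2 was lowest at 7.997 ± 0.949 RPKM. Among the 15257 genes tested, the mean CPM outside the graft placed Tgfbr1 at the percentile 99.6 and Tgfbr2 at 99.3, and Smad2 at 80.9.

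Inside the graft the order of mean RPKM was the same, except that Smad3 (15.5 ± 3.73 RPKM, n = 3) stood before Smad7 (13.8 ± 0.357 RPKM), and the libraries of these 2 genes overlapped in both groups. Tgfbr1 had 197 ± 50.3 RPKM inside and Tgfbr2 had 116 ± 12.7 RPKM. The libraries of Tgfbr2 lay above those of Nrros (83.8 ± 6.57 RPKM) without overlap, whereas outside the graft the libraries of these 2 genes overlapped. The remaining means inside the graft were 78.2 ± 12.4 RPKM for Ski, 42.6 ± 2.41 RPKM for Tgfb1, 24.2 ± 2.03 RPKM for Smad4, 18.3 ± 2.32 RPKM for Skil and 8.67 ± 2.43 RPKM for Smad2.

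**Figure D1:**
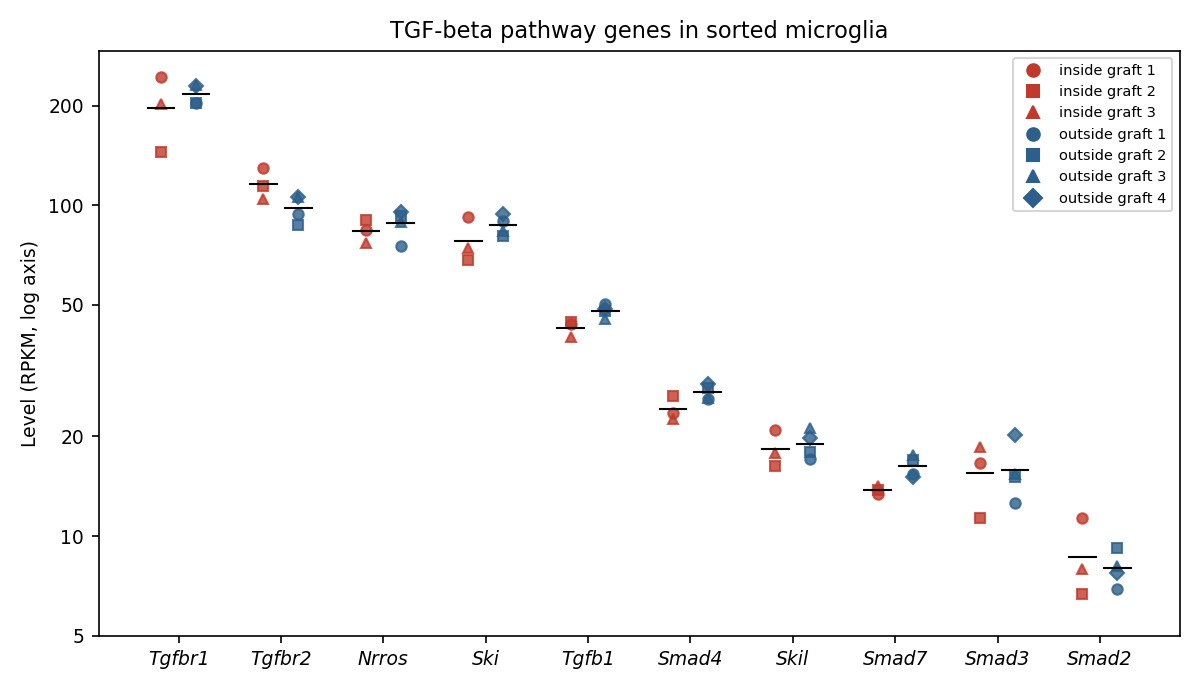
RPKM (log axis) of the 10 genes in each library, with the 3 libraries of the inside group and the 4 of the outside group as separate points. The genes span from about 217 RPKM for Tgfbr1 to about 7.997 RPKM for Smad2 outside the graft, and for most genes the points of both groups lie over each other.

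For the comparison of location, none of the 10 genes passed an adjusted p of 0.05 between inside and outside the graft. The count was 0 of 10 in edgeR's quasi-likelihood test, in which 15 of 15257 genes passed (0.0983%), 0 of 10 in limma's voomWithQualityWeights, in which 75 genes passed (0.492%, with 0.433% higher and 0.059% lower inside), and 0 of 10 in the DESeq2 Wald test, in which 420 genes passed (2.75%). At the threshold of 0.01 that the study used, 0 of 10 passed as well, where edgeR called 0 genes in all and voomWithQualityWeights called 3 (0.0197%). At an unadjusted p under 0.05 the count was also 0 of 10 in edgeR, where 9.55% of all genes fell under it, and 0 of 10 in voomWithQualityWeights, where 12.2% did. In edgeR the 95% intervals of all 10 log2 fold changes held 0, and all 10 intervals lay wholly between -1 and 1, the latter being so for 55.1% of all genes. Intervals tend to be narrower at higher counts. The 10 genes had at least 1139 counts in every library, whereas all genes include those just past the filter, so the 2 shares are not alike. Over the 10 genes the intervals reached from -0.51 at the lowest, for Smad7, to 0.53 at the highest, for Smad2. In counts simulated for this comparison, a 2-fold change was called by edgeR in 90.8% of the genes so altered, and a change by the square root of 2 in 8.4%. The simulation altered 200 genes with a mean of at least 60 CPM. These shares hold for that setting and can be too high for the real data, where 15 genes passed. Of the 10 edgeR fold changes, 8 were below 0, that is lower inside the graft, where 50.8% of all genes were. The median of the 10 was -0.10 on the log2 scale, against -0.0064 over all genes tested.

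**Figure D2:**
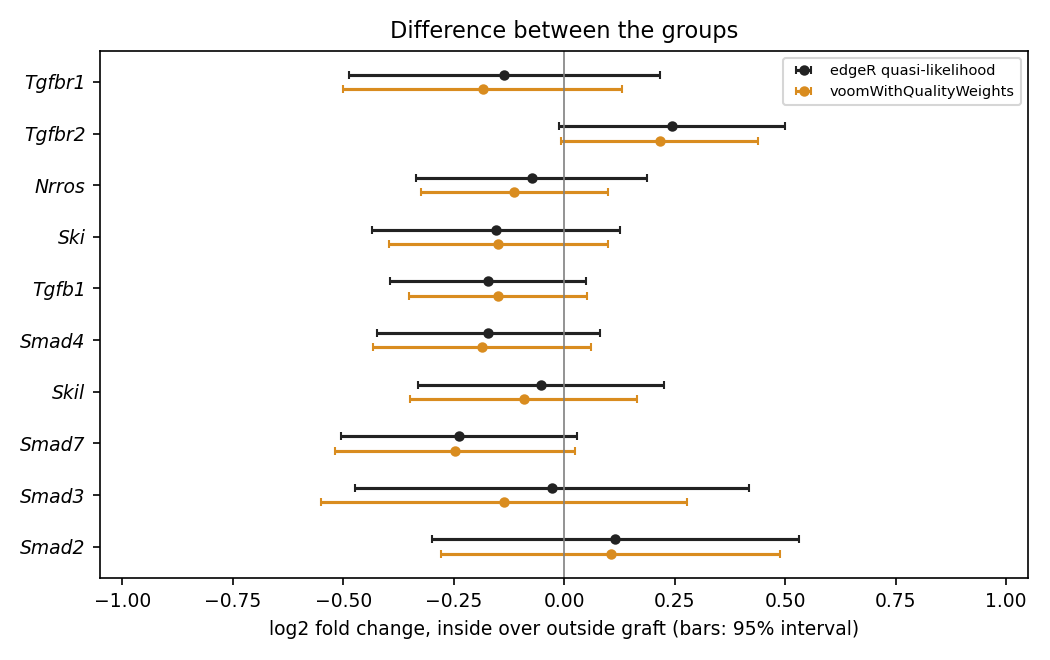
Log2 fold change of the 10 genes, inside over outside, with its 95% interval, from edgeR and from voomWithQualityWeights. The intervals of both tests hold 0 for every gene, and the edgeR values run from -0.24 for Smad7 to 0.24 for Tgfbr2.

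Tgfb1, which encodes the ligand, was read at 220.05, 224 and 201 CPM in the libraries inside the graft and at 253, 241, 229 and 246 CPM in those outside it. Every library inside was below every library outside, although the nearest of them (224 and 229 CPM) were close. The means were 215 ± 12.2 CPM (SD, n = 3) and 242 ± 10.3 CPM (n = 4), with a log2 fold change of -0.17 (SE 0.10, 95% interval -0.39 to 0.050) that did not pass the test (edgeR adjusted p = 0.655, voomWithQualityWeights adjusted p = 0.580). Such separation of the groups was seen in 2 of the 10 genes (20%), both lower inside, against 10.7% of all genes, of which 5.02% were lower inside. In bulk samples, a smaller share of cells that carry a transcript and less of it per cell cannot be told apart.

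Nrros, whose product (also called LRRC33) tethers latent TGF-β1 on myeloid cells, had 353, 376 and 321 CPM inside and 315, 387, 372 and 399 CPM outside the graft. The lowest of all 7 values was that of outside graft 1, which also had the fewest counts in all, and the groups overlapped. The log2 fold change was -0.074 (SE 0.12, edgeR adjusted p = 0.915).

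Tgfbr2 encodes the receptor that binds the ligand first. Its values were 1063, 936 and 857 CPM inside and 771, 715, 866 and 865 CPM outside. The library lowest inside the graft fell just below the higher pair outside, so the groups overlapped narrowly. With means of 952 ± 104 and 804 ± 74.3 CPM, the log2 fold change was 0.24 (SE 0.11, 95% interval -0.011 to 0.50), a fold of 1.18 with an interval from 0.992 to 1.413. This was the smallest p of the 10 genes, and it did not pass (edgeR adjusted p = 0.549, voomWithQualityWeights adjusted p = 0.428).

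Tgfbr1, the kinase that phosphorylates the Smads, was read at 1599.9, 945 and 1323 CPM inside and at 1332, 1329, 1505 and 1499 CPM outside. The library inside graft 1 was the highest of all 7 and inside graft 2 the lowest, so that the libraries outside lay between those inside. The coefficient of variation was 25.5% inside and 6.98% outside. The log2 fold change of -0.14 (SE 0.16, edgeR adjusted p = 0.870) took the other sign, 0.045, without inside graft 2 and was -0.32 without inside graft 1.

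Smad3, a receptor-activated transducer that binds DNA, had 92.0, 62.8 and 103 CPM inside and 69.5, 83.5, 85.5 and 112 CPM outside. Both groups spread widely and covered nearly the same range, and the log2 fold change was -0.028 (SE 0.20, 95% interval -0.47 to 0.42, edgeR adjusted p = 0.987). Its close relative Smad2 had 99.9, 58.8 and 69.6 CPM inside and 60.8, 80.9, 71.3 and 68.0 CPM outside. The high value of inside graft 1 set the sign for Smad2: the log2 fold change was 0.12 (SE 0.19, edgeR adjusted p = 0.915) with that library and -0.13 without it. Smad4, the partner shared by all receptor-activated Smads, had 87.3, 98.2 and 83.7 CPM inside and 96.2, 104, 96.9 and 107 CPM outside. Inside graft 2 stood within the range outside and the other two libraries inside stood below it, and the log2 fold change was -0.17 (SE 0.11, edgeR adjusted p = 0.721).

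Smad7, the inhibitory Smad that TGF-β itself induces and that directs the receptor to degradation, was the other gene whose groups did not overlap. It had 60.8, 62.5 and 64.0 CPM inside and 69.7, 77.0, 79.5 and 68.1 CPM outside. The libraries inside were the tightest set of any of the 10 genes, with a coefficient of variation of 2.59%, and the means were 62.4 ± 1.61 and 73.6 ± 5.54 CPM. The log2 fold change of -0.24 (SE 0.12, 95% interval -0.51 to 0.030), a fold of 0.848, did not pass in either test (edgeR adjusted p = 0.586, voomWithQualityWeights adjusted p = 0.469).

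Ski, a corepressor that holds Smad complexes inactive on DNA, had 512, 379 and 413 CPM inside and 499, 450.04, 464 and 522 CPM outside. Again inside graft 1 fell among the libraries outside, while inside graft 2 and 3 were below all of them. The log2 fold change was -0.15 (SE 0.13, edgeR adjusted p = 0.793). Skil, its relative, which is itself a TGF-β target in many cells, had 202, 158 and 173 CPM inside and 166, 175, 205 and 191 CPM outside. The groups lay over each other, and its log2 fold change was -0.052 (SE 0.13, edgeR adjusted p = 0.950).

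The libraries inside the graft differed among themselves in these genes more than those outside it. The coefficient of variation was larger inside than outside for 8 of the 10 genes, the exceptions being Nrros (7.84% inside, 10.0% outside) and Smad7 (2.59% inside, 7.52% outside). The median was 11.8% inside and 8.38% outside for the 10 genes, whereas over all genes tested it was 21.5% inside and 23.1% outside. Spread depends on the level, and the 10 genes lay at or above the percentile 80.9 of mean CPM outside, so these are not like sets. The share of all genes with a larger coefficient of variation inside was not determined. Inside graft 2 gave the lowest of all 7 values for 5 of the 10 genes, namely Tgfbr1, Smad2, Smad3, Ski and Skil, and outside graft 4 gave the highest for 4. The difference in spread between the groups was not tested.

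**Figure D3:**
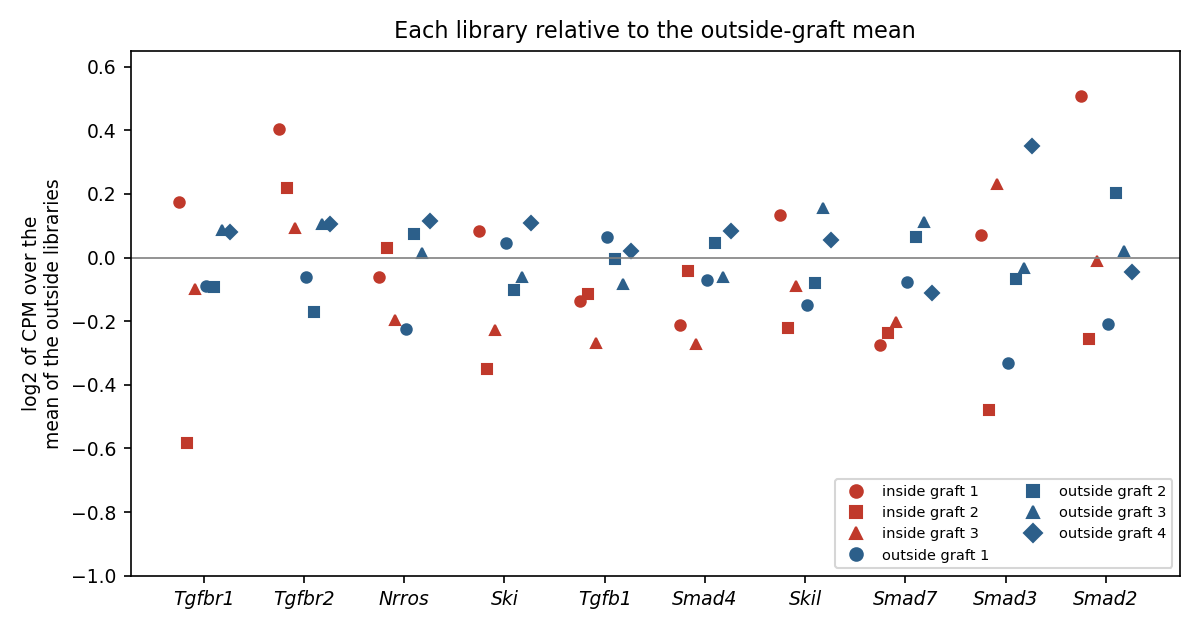
Log2 of the CPM of each library over the mean of the libraries outside the graft, for the 10 genes in the order of their RPKM. Inside graft 2 (red squares) lies lowest for Tgfbr1, Smad3, Ski, Smad2 and Skil, and the 3 red points lie below all blue ones for Tgfb1 and Smad7.

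Ratios of a pair of these genes within a library do not depend on how the libraries were scaled to each other. The ratio of Tgfbr1 to Tgfbr2, in RPKM, was 1.88, 1.26 and 1.93 inside the graft and 2.16, 2.33, 2.178 and 2.17 outside it. All libraries inside had a lower ratio than any library outside, and the mean ratio was 1.69 ± 0.373 inside and 2.21 ± 0.0796 outside, a difference of -23.4%. Without inside graft 2 the difference was -13.6%. This was 1 of the 5 ratios taken, and for pairs among the 3536 genes with at least 10 RPKM in every library, 13.1% of ratios did not overlap between the groups. The other 4 ratios overlapped. The ratio of Smad3 to Smad2 was 1.83 ± 0.455 inside and 1.99 ± 0.424 outside, and that of the inhibitor Smad7 to Smad3 was 0.931 ± 0.251 inside and 1.06 ± 0.214 outside. Skil stood to Ski at 0.235 ± 0.00761 inside and 0.219 ± 0.0263 outside. For Tgfb1 to Nrros the ratio was 0.509 ± 0.0142 inside and 0.550 ± 0.0768 outside, where outside graft 1 alone reached 0.665.

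**Figure D4:**
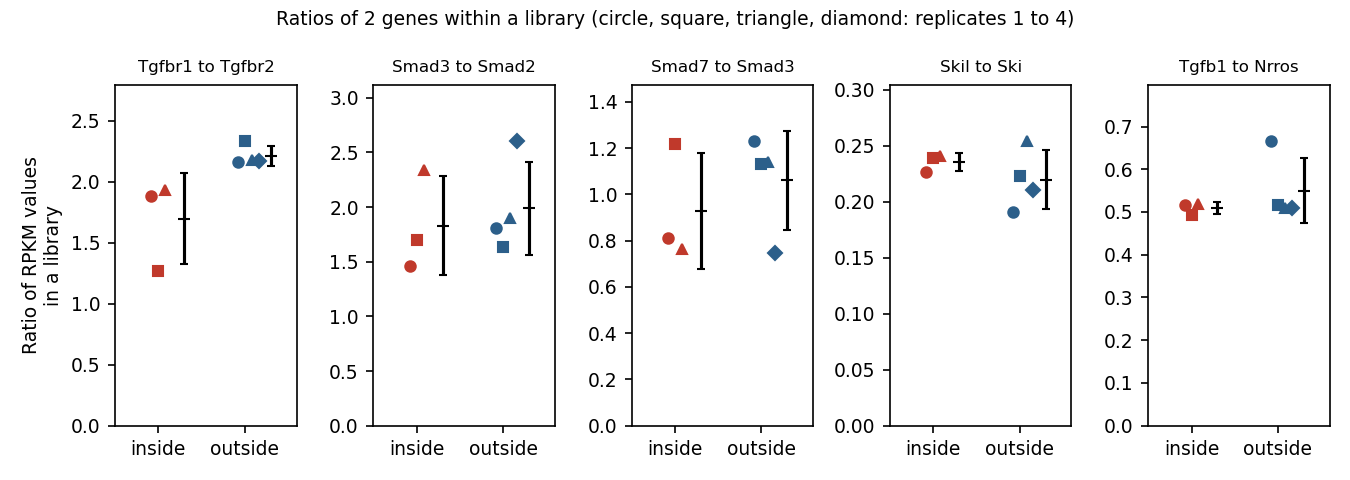
Ratios of the RPKM values of 5 gene pairs within each library, with the mean and SD of each group. For Tgfbr1 to Tgfbr2 the 3 libraries inside the graft (1.26 to 1.93) lie below the 4 outside (2.16 to 2.33), and for the other pairs the groups overlap.

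Beyond the 10 genes, 74 further genes of the pathway were examined in 7 lists, and 58 of them passed the filter on low counts. In both tests 0 of the 58 passed an adjusted p of 0.05. In each test 15 of them had an unadjusted p under 0.05, beside 9.55% of all genes in edgeR and 12.2% in voomWithQualityWeights. Of these 15, 7 were from the list of microglial genes that depend on TGF-β. Another 2 were other ligands that passed the filter only through libraries inside the graft. All 7 lists were chosen with earlier results of these data known, so shares over the 58 genes are no independent evidence. Below 0 were 37 of the 58 edgeR fold changes (63.8%), with a median of -0.087, against 50.8% and -0.0064 over all genes. The list of microglial genes that depend on TGF-β gave 10 of the 37. The groups did not overlap for 7 of the 58 that were lower inside and for 2 that were higher, beside 5.02% and 5.65% of all genes. Of those 7, 4 were from that same list, and the 2 were other ligands.

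Among the TGF-β isoforms, those other than Tgfb1 were close to absent from the counts. Tgfb2 had at most 1 count in any library and Tgfb3 at most 14, and neither passed the filter. Of 9 other ligands, 4 passed it. Inhba, which encodes the activin A subunit, had 4.004, 0.488 and 8.89 CPM inside and 0.107, 0, 0.322 and 0.0405 CPM outside. All libraries inside were above all outside, and they differed widely among themselves, with a log2 fold change of 5.17 (SE 1.16, 95% interval 2.59 to 7.75, edgeR adjusted p = 0.117, voomWithQualityWeights adjusted p = 0.305). Bmp2, a bone morphogenetic protein, was named after its values were seen. It had 13, 11 and 43 counts inside and 0 counts in each library outside, which is at least 28.3-fold higher inside when 3 counts over the group outside are taken as the limit that a count of 0 allows (edgeR adjusted p = 0.121, voomWithQualityWeights adjusted p = 0.0676). Inhba and Bmp2 passed the filter on low counts only through their libraries inside the graft, so that they had to differ, and their folds and the 2 genes counted as higher without overlap rest on that selection. Gdf11 had 1.16 ± 0.709 CPM inside and 1.94 ± 1.35 CPM outside (edgeR adjusted p = 0.857).

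The same libraries differed in markers of other cell types. The order of Inhba over the libraries inside was that of the neutrophil, monocyte, border-associated macrophage, proliferation, neuronal and endothelial markers. Microglial, astrocyte, oligodendrocyte, T cell, and mural and fibroblast markers had other orders. With 3 libraries an order is easily shared, and the endothelial sums of inside graft 1 and 3 were close, at 25.3 and 25.7 CPM. The summed CPM of 5 neutrophil markers was 4466 in inside graft 1, 466 in inside graft 2 and 9688 in inside graft 3, and 0.311 to 195 outside, with 4 of the 5 markers not overlapping between the groups. For 6 monocyte markers the sum was 657, 81.3 and 1357 CPM inside and 6.72 to 32.1 CPM outside, with 2 of 6 not overlapping. Of all genes, 5.65% were higher inside without overlap. The neutrophil markers summed to 0.640 CPM in outside graft 1 and 0.311 CPM in outside graft 2, with 2 and 3 of them at 0 counts. Markers near 0 outside could pass the filter on low counts only through the libraries inside. Such markers had to be higher inside, so the share over all genes is no like background for them. The part of neutrophils, monocytes or other such cells in the values of Inhba and Bmp2, or of any of the 10 genes, was not tested. The study's flow cytometry panel for microglia included antibodies to Ly6C and Ly6G, which monocytes and neutrophils carry. Summed markers of border-associated macrophages were 113, 16.7 and 121 CPM inside and 5.96 to 17.8 CPM outside. Those of proliferation were 99.2, 76.6 and 121 CPM inside and 6.48 to 35.2 CPM outside. All 5 proliferation markers were higher inside without overlap, and voomWithQualityWeights called 2 of them at an adjusted p of 0.05, beside 0.492% of all genes. The 7 microglial markers were at 32021 to 36225 CPM inside and 34808 to 38506 CPM outside with 0 of the 7 at 0, T cell markers were at or below 2.13 CPM in every library, and neuronal markers at or below 10.3 CPM. Astrocyte markers summed to 247 to 298 CPM inside and 326 to 350.3 CPM outside, endothelial markers to 19.2 to 25.7 and 28.1 to 46.1 CPM, oligodendrocyte markers to 155 to 159 and 155 to 165 CPM, and mural and fibroblast markers to 0.510 to 1.95 and 0.133 to 3.63 CPM.

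For latency and activation of the ligand, 6 of 13 genes passed the filter, and the groups overlapped for all 6. Itgb5, an integrin subunit of the kind that can free TGF-β1, was far above the 10 genes per length, at 765 ± 114 RPKM inside and 694 ± 54.4 RPKM outside (edgeR log2 fold change 0.14, adjusted p = 0.791). Thrombospondin 1 (Thbs1), another activator, had 23.0 ± 8.78 CPM inside and 19.2 ± 7.95 CPM outside (adjusted p = 0.901), and the latent TGF-β binding protein gene Ltbp3 had 8.17 ± 2.697 and 7.004 ± 2.50 CPM (adjusted p = 0.920). Lrrc32, which encodes the latency partner used by other cell types, had 0 counts in all 7 libraries, beside at least 5911 for Nrros. Itgb8, the integrin subunit known to activate TGF-β1 on the microglial complex from neighbouring cells, had at most 11 counts. Ltbp1 had at most 1.

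Of 10 other receptors of the superfamily, 9 passed the filter and 7 had edgeR fold changes below 0, with a list median of -0.19 that was -0.30 without inside graft 2. Acvr2b, an activin receptor, had 31.4, 28.4 and 29.2 CPM inside and 52.9, 46.3, 43.5 and 45.1 CPM outside. The groups were well apart, with 29.7 ± 1.57 and 47.0 ± 4.15 CPM and a log2 fold change of -0.66 (SE 0.14, 95% interval -0.98 to -0.34). It had the lowest edgeR adjusted p of the 58 genes, 0.109, which missed 0.05, as did the 0.0906 of voomWithQualityWeights. Acvr2a, the paralogous receptor, had 20.2 ± 4.38 CPM inside and 29.2 ± 10.9 CPM outside (adjusted p = 0.636). Bambi, a decoy receptor without kinase, had 3.54 ± 2.50 and 1.90 ± 0.943 CPM (adjusted p = 0.736). The coreceptor gene Tgfbr3 had at most 11 counts.

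The Smads of the bone morphogenetic protein branch gave 3 tested genes of 4, all with fold changes below 0 that did not pass. Smad1 had 102 ± 10.5 CPM inside and 118 ± 10.1 CPM outside (log2 fold change -0.21, edgeR adjusted p = 0.658), Smad5 had 41.5 ± 23.4 and 54.9 ± 9.31 CPM (-0.40, adjusted p = 0.774), and the inhibitory Smad6 had 4.604 ± 2.23 and 5.26 ± 2.54 CPM (-0.20, adjusted p = 0.958). All 16 listed regulators of Smads and receptors were tested, 9 of them below 0. The values farthest from 0 among those with at least 1 CPM on average were those of the corepressor Tgif2 (-0.47, adjusted p = 0.866), the endosomal protein gene Zfyve16 (0.47, adjusted p = 0.839) and the ubiquitin ligase Nedd4l (0.46, adjusted p = 0.723). Smurf2, the ligase that SMAD7 brings to the receptor, was named after its values were seen: it had 32.4 to 38.0 CPM inside and 40.9 to 56.9 CPM outside, without overlap (log2 fold change -0.42, adjusted p = 0.417).

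Genes that Smads switch on directly in many cell types did not move to one side. Of 12 listed, 10 were tested, 3 below 0 and 7 above it, with a median of 0.40, and the range ran from -0.43 to 2.04. The gene at 2.04 had a mean below 1 CPM over all libraries. The median depended on single libraries but stayed above 0 whichever library was removed. Removal of outside graft 3 lowered it to 0.20, of inside graft 3 to 0.22 and of outside graft 1 to 0.23. For outside graft 2 the value became 0.27, and for inside graft 2 it became 0.29. Removal of inside graft 1 raised the median to 0.56, and that of outside graft 4 left it at 0.41. With both inside graft 3 and outside graft 3 removed, the median was 0.18. Id2, an inhibitor of helix-loop-helix factors, had 45.7 ± 11.9 CPM inside and 30.1 ± 5.48 CPM outside (log2 fold change 0.60, adjusted p = 0.366), and the cell cycle inhibitor Cdkn1a had 16.5 ± 6.71 and 11.002 ± 2.09 CPM (0.58, adjusted p = 0.586). On the other side stood Pmepa1, named after its values were seen, which encodes a feedback inhibitor that sequesters SMAD2 and SMAD3. It had 365, 396 and 273 CPM inside and 418, 507, 486 and 445 CPM outside, without overlap, at a log2 fold change of -0.43 (edgeR adjusted p = 0.318, voomWithQualityWeights adjusted p = 0.142).

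A further list held 10 microglial genes that are known to depend on TGF-β. All 10 were tested, all 10 edgeR fold changes were below 0, from -0.52 to -0.021, and their median was -0.30, where 50.8% of all genes were below 0. At an unadjusted p under 0.05 stood 7 of the 10 in each test, beside 9.55% of all genes in edgeR and 12.2% in voomWithQualityWeights, and 0 passed after adjustment over all genes. The median was -0.24 with inside graft 3 and outside graft 3, the library of each group highest in neutrophil markers, left out. That fit kept inside graft 1 and 2 at 4466 and 466 CPM of these markers, against at most 18.1 CPM outside. The groups therefore still differed in these markers. The list was chosen with earlier results of these data known, and the sign of its genes is therefore no independent evidence. The purinergic receptor P2ry13 had 1575.5, 1140.1 and 1425 CPM inside and 1828, 1710.2, 2171 and 2232 CPM outside. Its libraries did not overlap, and it had the list's lowest adjusted p in both tests, 0.174 in edgeR and 0.0679 in voomWithQualityWeights, at a log2 fold change of -0.52 (SE 0.14). P2ry12, the ADP receptor that guides microglial processes, had 5949.8, 4358 and 4429.8 CPM inside and 6302, 6055, 7439.8 and 7222 CPM outside, again without overlap (log2 fold change -0.46, edgeR adjusted p = 0.185, voomWithQualityWeights adjusted p = 0.0854). The fructose transporter gene Slc2a5 had 669.9 ± 95.8 CPM inside and 898 ± 104 CPM outside, and inside graft 1 overlapped the libraries outside (log2 fold change -0.42, edgeR adjusted p = 0.280). Sall1 and Sparc, named after their values were seen, were the remaining pair of the 4 genes of this list that were lower inside without overlap, beside 5.02% of all genes. Sall1, a transcription factor of microglial identity, had 465 to 529 CPM inside and 568 to 718 CPM outside (log2 fold change -0.35, edgeR adjusted p = 0.297), and the matricellular protein gene Sparc had 3119 to 3894 and 3965 to 4354 CPM (-0.24, adjusted p = 0.401).

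**Figure D5:**
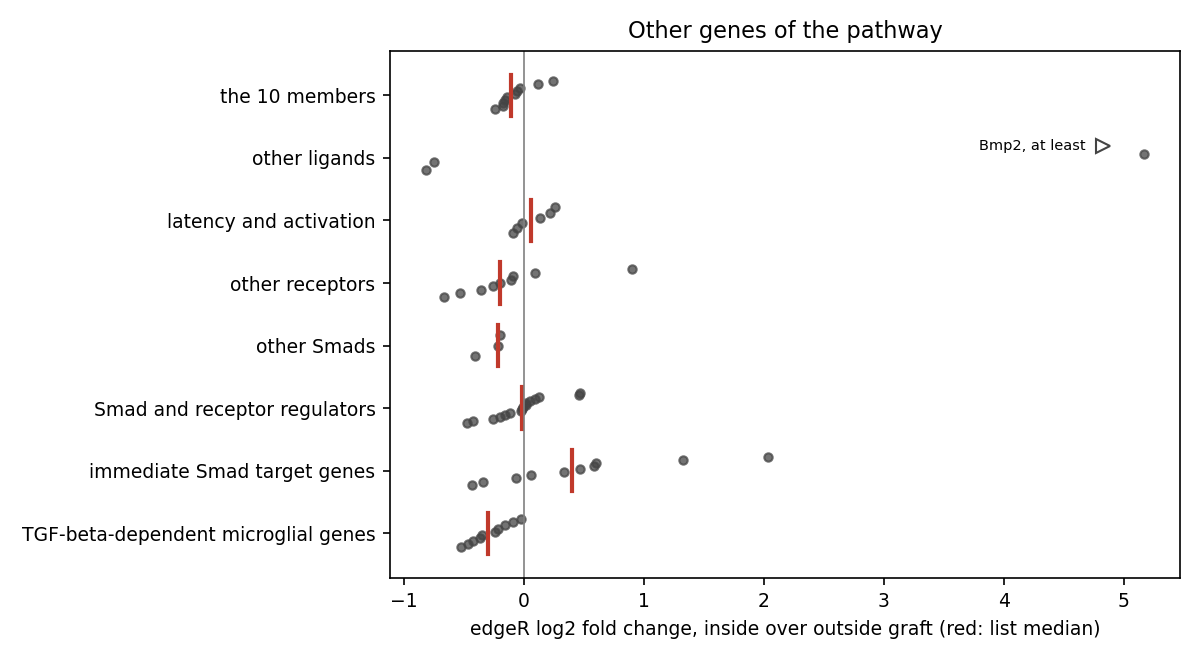
EdgeR log2 fold change (inside over outside) for each tested gene of the 10 members and the 7 pathway lists, with list medians in red. The TGF-β-dependent microglial genes all lie below 0 (median -0.30), and Bmp2, with 0 counts outside, is drawn as an open triangle at its lower bound, with no median for the 4 other ligands.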

How the data were processed

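The authors sorted CD11b+CD45low cells, amplified cDNA with a low-input kit, aligned single reads to GRCm38.p6 with STAR 2.7.2a and deposited, for every gene name of GENCODE M21, the raw counts that featureCounts 1.6.2 gave. Tool versions are those of the submitters' processing notes. Multi-mapping reads were not counted and strand was ignored, so antisense reads cannot be told apart. Exon lengths came from the deposited table, which holds no other measure. Totals ran from 18644807 to 25882122 counts per library. Reads carried no molecular identifiers, so a limit from a count of 0 covers counting error only. All library pairs of a group differed by more than counting noise (chi-square per degree of freedom at least 17.8).

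Groups came from the sample titles. CPM and RPKM used TMM library sizes after filterByExpr. The main test was edgeR 4.0.16 quasi-likelihood, beside limma 3.58.1 voomWithQualityWeights, the study's test, in R 4.3.3, with Benjamini-Hochberg adjustment over 15257 genes and a threshold of 0.05 (0.01 in the study). Quality weights ran from 0.448 for outside graft 1 to 1.76 for outside graft 4. The median log2 fold change of all genes was -0.0064 with TMM and -0.041 with library size alone. Standard errors were taken from the F statistic.

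The 10 genes, the lists and the rule for naming further genes were chosen with earlier results of these data known. Named were the 10 genes and, from each of 7 pathway lists, genes called in either test and the 3 with the largest absolute edgeR fold change and a mean of at least 1 CPM. A gene that this rule names is not reported here. Cell types were checked with 11 marker lists. Upstream sequences came from RefSeq on GRCm38.p6, and 6 of the 10 genes had one that was used. Alternatives were other normalizations, filters and thresholds, DESeq2 1.42.0, voom without weights, a replicate block and the removal of each library in turn. The fit without inside graft 3 and outside graft 3, the libraries with the most neutrophil markers of each group, was added once the data had been seen. Tested on 5 simulated sets with 200 genes changed, edgeR made 7.4 false calls per set and 95.2% of its 95% intervals held the true value.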

Additional observations from a re-analysis of the deposited data

Results flagged for a closer look

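In 2 of the 15 sets of 4 libraries outside the graft that were tested (10 gene levels and 5 ratios), 1 library stood farther from the others than the 95% limit of Dixon's test allows, where chance gives 0.75. The ratio of Tgfbr1 to Tgfbr2 was 2.33 in outside graft 2 and 2.16 to 2.178 in the other 3 libraries outside. The ratio of Tgfb1 to Nrros was 0.665 in outside graft 1 and 0.509 to 0.516 in the others. Outside graft 1 had the smallest total count and the lowest Nrros level of all 7 libraries, 315 CPM. Without outside graft 1, the mean ratio of Tgfb1 to Nrros inside the graft differed from that outside by -0.467%, against -7.41% with all libraries.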

How the results depend on the processing

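None of the 10 genes passed an adjusted p of 0.05 under any of the 17 alternatives, and the lowest adjusted p over them was 0.327, for Tgfbr2 with DESeq2. The signs of Tgfb1, Nrros, Tgfbr2, Smad4, Smad7 and Ski held throughout. Among these genes, sizes moved by over 1.5 times with 1 library left out for Ski, Nrros and Tgfbr2. Ski was at -0.15, but at -0.28 without inside graft 1 and -0.064 without inside graft 2. Nrros was at -0.074, but at -0.14, -0.048 and -0.033 without outside graft 1, 2 and 4, and at -0.13 and -0.016 without inside graft 2 and 3. Tgfbr2 was at 0.24, but at 0.16 without inside graft 1. Leaving out inside graft 2 gave log2 fold changes of 0.045 for Tgfbr1, 0.15 for Smad3 and 0.026 for Skil. Leaving out inside graft 1 gave -0.13 for Smad2, -0.32 for Tgfbr1 and -0.15 for Skil. Smad3 was at 0.11 when outside graft 4 was dropped. Skil was at 0.0047 when outside graft 3 was dropped and at 0.022 when inside graft 3 was dropped with it. Of the 10 fold changes, 5 to 9 were below 0 with 1 library left out, and 5 were when that library was inside graft 2. The cause of these changes was not tested.

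Over all genes, edgeR called 15 genes, but 0 at a threshold of 0.01, 366 without the filter, 92 when every library had to hold at least 10 counts, 1 with inside graft 3 and outside graft 3 dropped together and 0 to 73 with 1 library left out (73 when it was inside graft 2, 0 when it was inside graft 3 or outside graft 4, 4 when it was outside graft 2), and DESeq2 called 420. With voomWithQualityWeights the 75 calls became 3 at 0.01, 225 without the filter, 211 when every library had to hold at least 10 counts, 10 without weights, 8 with those libraries dropped and 1 to 207 with 1 library left out (207 when it was inside graft 2, 48 when it was inside graft 3, 36 when it was outside graft 1, 1 when it was outside graft 3 or 4). The cause was not tested.

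The labels do not say whether equal replicate numbers mark the same mouse. Deviations of same-numbered libraries correlated at -0.061, 0.10 and 0.088, and those of differently numbered ones at -0.16 to 0.074. These values do not decide whether the samples were paired. A replicate block was fitted without outside graft 4, which has no same-numbered partner. With the block edgeR called 43 genes and voomWithQualityWeights 265, against 0 and 1 on the same libraries without it. Smad3 was at 0.089 with the block, and the block gave none of the 10 genes a call.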
